A study of Homo sapiens with 6 samples.

Results

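The hairpin sh52 was compared with the control hairpin shGFP in U87MG cells, a line grown from a human glioblastoma. Per the labels and the series' design text, the cells were infected with lentiviruses carrying short hairpin RNAs, passed through drug selection and grown for 5 days more, and their total RNA was hybridised to Affymetrix human transcriptome arrays. All cells, controls included, thus carried a virus, a hairpin and the selection marker. The labels give 2 arrays for sh52, 2 for shGFP and 2 for another hairpin, sh50. The comparison uses 4 of the 6 arrays, with sh50 set beside it where it shows what differs. The series title names SAT1, but the design text gives no target for sh52. It covers the 33764 of 67528 transcript clusters (probe groups that stand for a transcript, here called transcripts) that reached the median level, judged by each one's average across the 6 arrays. Of these, 14376 genes were represented by the brightest transcript carrying their symbol alone. The labels do not say whether arrays of a group came from separate cultures, so the tests below measure only the spread between these arrays, which may be technical. With 2 arrays a group, that number limits the precision of every value.

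The array labelled sh52 1 stood apart, so both same-number differences are given throughout: sh52 1 minus shGFP 1 (number 1) and sh52 2 minus shGFP 2 (number 2), on the log2 scale, where 1 is a factor of 2. The array labelled sh52 1 correlated with the others at 0.969 to 0.980 over transcripts, and the array labelled sh52 2 with the remaining 4 at 0.984 to 0.989. Those 4 correlated with each other at 0.974 (shGFP 1 with sh50 2) to 0.988, so the ranges overlap. The mean of 8 spike-in controls was 9.83 on the array labelled sh52 1 and between 8.88 and 9.26 on the others, while array medians lay between 3.92 and 4.07. Differences between transcripts had a standard deviation of 0.604 in number 1 and 0.400 in number 2. Over the 14376 genes the pair of differences, which share no array, correlated at a Pearson's r of 0.59 (across genes, which are not independent replicates). With the numbers crossed the r was 0.11. Over the 33764 transcripts it was 0.42, and 0.06 with the numbers crossed. Of 14 listed markers of glioma and mesenchymal lines 8 were measured. S100B, OLIG2, SOX2, FABP7, AQP4 and CNR1 were below the filter. VIM, a filament protein of mesenchymal cells, read 15.64 to 16.10 on the 4 arrays. CD44, a hyaluronan receptor, read 14.37 to 14.96 on them. CDKN2A, known to be deleted in this line, read 3.61 to 3.88 over the 6 arrays and was below the filter. GFAP, the astrocyte filament, read 4.46 to 4.49.

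Background helps in reading the values. A short hairpin RNA is processed in the cell into a small RNA that guides the silencing complex to matching messenger RNAs, and it can also act on partly matching messages through its seed bases, as microRNAs do. SAT1 encodes the enzyme that acetylates spermidine and spermine, the step that limits the rate of polyamine breakdown. U87MG cells divide quickly in culture and make much extracellular matrix.

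SAT1 did not separate the groups. It read 9.45 and 8.96 on the shGFP arrays, 9.36 and 8.35 on the sh50 arrays, 10.83 on the array labelled sh52 1 and 7.84 on the array labelled sh52 2. The array labelled sh52 1 thus had the highest SAT1 level of all 6 and the array labelled sh52 2 the lowest. The number 1 difference was 1.39 and the number 2 difference -1.12, and limma's estimate was 0.13 ± 0.96 (SE, adjusted p = 0.98). It turned to -1.36 without the array labelled sh52 1 and to -0.11 without shGFP 2, and was 1.63 without the array labelled sh52 2. Whether the array labelled sh52 1 holds the sample its label names, or one from another culture, cannot be told from the labels and was not tested. SAT1 set the sh52 arrays apart. NCEH1, described below, read 6.95 and 7.01 on them and at least 9.86 on the other 4. It was picked by the size of its concordant differences, so its low level on both sh52 arrays follows from that choice. Every number 1 difference rests on the array labelled sh52 1, as do directions given for sh52.

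No transcript passed the test. limma, fitted over all 6 arrays, called 0 of 33764 transcripts at an adjusted p of 0.05 (0% called, smallest adjusted p 0.501). Unadjusted p-values under 0.05 numbered 2964 (8.78%), 1441 of them higher with sh52 (4.27%) and 1523 lower (4.51%). Both same-number differences reached 2-fold in the same direction for 237 transcripts higher (0.702%) and 260 lower (0.77%), or 126 genes higher (0.876%) and 172 lower (1.2%). Which direction had more transcripts turned with the scaling, at 290 higher and 214 lower under quantile normalization and 219 and 294 with arrays centred on their medians. With the numbers crossed they were 158 and 222. In number 1 alone 1703 transcripts were 2-fold higher (5.04%) and 1307 lower (3.87%), against 408 (1.21%) and 524 (1.55%) in number 2. Both sh52 arrays lay above both shGFP arrays for 6812 transcripts (20.2%) and below both for 6587 (19.5%). Over genes the shares were 20.8% above and 22.2% below, against which counts in the gene lists below are read. With the array labelled sh52 2 taken alone they were 35.3% and 32.2%. No list member passed the test, so what follows gives levels and differences, and "higher" or "lower" means the position of these arrays.

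**Figure D1:**
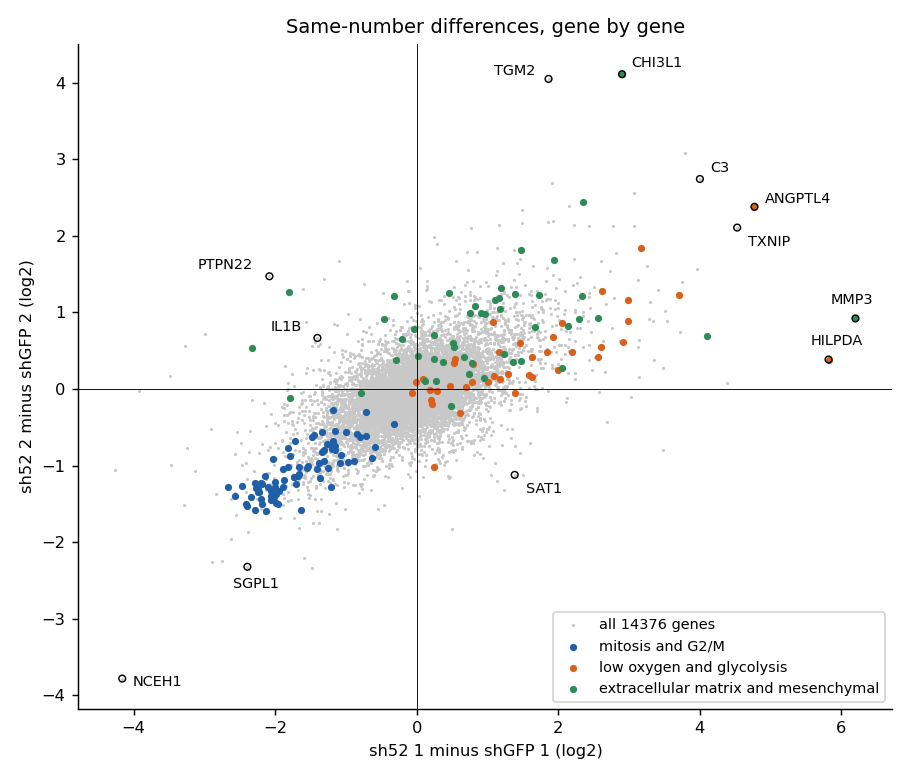
Each point is a gene, with sh52 1 minus shGFP 1 on the x axis and sh52 2 minus shGFP 2 on the y axis (log2), and 3 gene lists are coloured. Mitosis genes lie below 0 on both axes, low-oxygen genes spread to the right with small values on the y axis, NCEH1 sits alone at the lower left, and SAT1 is positive in number 1 and negative in number 2.

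NCEH1 had the largest of the concordant lower differences. It encodes a hydrolase of cholesterol esters and ether lipids in the endoplasmic reticulum. The shGFP arrays read 11.12 and 10.79, the sh50 arrays 11.54 and 9.86, and the sh52 arrays 6.95 and 7.01. Both sh52 arrays were thus at nearly the same level and far below the other 4. The same-number differences were -4.16 and -3.78, limma's estimate was -3.97 ± 0.53 (SE, adjusted p = 0.501), a fold of 15.7 lower, and the estimate against sh50 was -3.72. Leaving out any single sh52 or shGFP array gave -3.81 to -4.14.

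NCEH1 was among 9 genes (0.0626% of genes) whose sh52 arrays both lay at least 2-fold below every shGFP and every sh50 array, a set picked by these values and given as a description. SGPL1, the lyase that ends sphingosine-1-phosphate signalling by cleaving it, read 8.87 and 9.09 with shGFP, 8.80 and 9.01 with sh50 and 6.48 and 6.77 with sh52. Its differences of -2.39 and -2.32 were nearly equal, and its standard error of 0.19 around an estimate of -2.36 was small. POMK, a kinase that phosphorylates the sugar chain of dystroglycan, read 9.63 and 9.29 with shGFP, 8.73 and 8.33 with sh50 and 6.73 and 7.03 with sh52. For POMK the sh50 arrays also lay below the controls, by less. GSR, glutathione reductase, which keeps glutathione in its reduced form, read 11.42 and 11.96 with shGFP, 11.25 and 11.26 with sh50 and 8.67 and 9.72 with sh52.

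The other 5 genes of this set have different known roles. TMEM30A, the partner subunit of lipid flippases, read 12.19 and 12.17 with shGFP, 12.74 and 12.44 with sh50 and 10.59 and 9.96 with sh52. ATL3, which fuses tubules of the endoplasmic reticulum, differed by -2.63 and -1.96 and NGRN, needed for mitochondrial ribosomal RNA, by -2.38 and -1.86. COLGALT1, which adds galactose to collagen in the endoplasmic reticulum, differed by -1.40 and -1.13. DYNLL2, a dynein light chain, differed by -2.08 and -1.09. Of the 9, only GSR belonged to a gene list used here. Just outside the set was M6PR, the mannose-6-phosphate receptor that carries enzymes to lysosomes, with sh52 arrays at 9.22 and 10.08, shGFP at 10.95 and 11.76 and sh50 at 11.27 and 11.08.

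**Figure D2:**
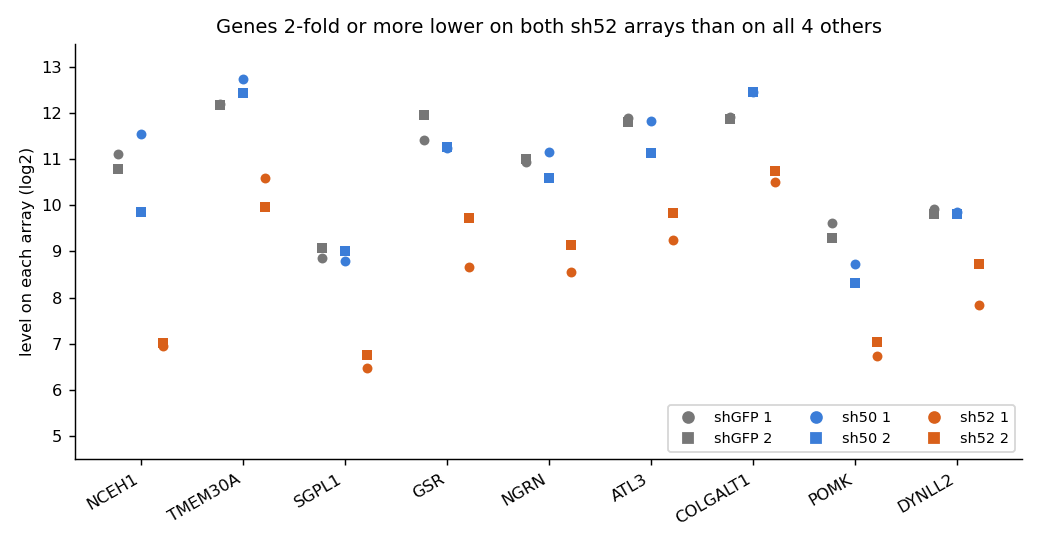
Levels (log2, y axis) of the 9 genes whose sh52 arrays both lay 2-fold or more below every other array, with grey for shGFP, blue for sh50 and orange for sh52, circles for number 1 and squares for number 2. In NCEH1 the sh52 arrays read 6.95 and 7.01 against 9.86 to 11.54 on the other 4.

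In the opposite direction 5 genes (0.0348%) had both sh52 arrays at least 2-fold above all 4 others. CA12, a membrane carbonic anhydrase that is also a target of the low-oxygen response, read 11.81 and 11.38 with shGFP, 11.31 and 11.69 with sh50 and 14.97 and 13.22 with sh52. AKR1B10, an aldo-keto reductase, read 7.40 and 8.29 with shGFP, 7.55 and 8.35 with sh50 and 9.67 on both sh52 arrays. ATP2B4, a calcium pump of the plasma membrane, differed by 1.14 and 1.53. HLA-DRA is described with the class II genes, and the fifth was the noncoding LINC00601, with differences of 2.00 and 1.12. The CA12 estimate of 2.50 was 1.63 without the array labelled sh52 1.

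Genes of mitosis stood lower with sh52 on every array. The program is switched on late in the cell cycle, when the MuvB complex with B-MYB and FOXM1 binds promoters carrying a CHR element and, nearby, CCAAT boxes bound by NF-Y. Of the 79 listed genes 77 were measured, BUB1B and CIT having no transcript under their own symbol here. All 77 had both sh52 arrays below both shGFP arrays, against 22.2% of all genes, and 46 were 2-fold lower in both numbers, against 1.2%. Leaving out the array labelled sh52 1 drops a condition, so these counts could not fall. They were again 77 and 46, against 4623 (32.2%) and 222 of all 14376 genes. The median difference was -1.72 in number 1 and -1.12 in number 2, against -0.012 and -0.014 over all genes. A bulk array cannot tell fewer dividing cells from less of these RNAs per cell. The list's median level was 9.86 and 8.61 on the sh50 arrays, on either side of the 9.21 and 9.51 on the sh52 arrays. The mean of the sh50 arrays gave a median of -1.44 against shGFP and of -0.02 for sh52 minus sh50. Those comparisons share arrays.

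By role, the spindle motors and cytokinesis genes had the median farthest from 0, -1.64 over 21 genes with 16 of them 2-fold lower in both numbers. Kinases followed at -1.47 (9 genes) and centromere and kinetochore genes at -1.35 (22 genes). PLK1, the kinase of mitotic entry, read 14.16 and 13.92 with shGFP, 12.53 and 11.57 with sh50 and 11.49 and 12.64 with sh52. CCNB1, the cyclin that drives entry into mitosis, read 12.79 and 12.28, then 11.49 and 10.46, then 10.22 and 10.89 in the same order. In both genes every array of either hairpin lay below both controls. CENPF, a kinetochore protein, differed by -2.28 and -1.58, and TPX2, which nucleates spindle microtubules, by -2.24 and -1.35. CDC20, which activates the anaphase-promoting complex, differed by -2.23 and -1.34, NCAPH of condensin by -2.47 and -1.26, and MKI67, the proliferation marker that coats mitotic chromosomes, by -2.19 and -1.51. Among the list's transcription factors FOXM1 differed by -2.28 and -1.30 and MYBL2, which encodes B-MYB, by -1.31 and -0.80. The smallest estimate was that of CENPM, at -0.32 and -0.46. MYBL1, the relative of B-MYB, was not in the list and differed by -1.93 and -1.69. Other genes among the 15 with the largest concordant lower differences were NCAPG of condensin at -1.64 and -1.59 and CDCA8, which carries Aurora B to centromeres, at -2.14 and -1.59. DIAPH3, which builds actin filaments, differed by -2.55 and -1.64. ATAD2, a bromodomain protein of chromatin, differed by -1.66 and -1.81.

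Promoters of 4 mitosis genes are printed because the genes stood lower together and their promoters carry the letters of known cell-cycle elements. They span 250 bases before to 50 after the annotated start and come from RefSeq on GRCh38.p14. Capitals mark TTTGAA, the core letters of the CHR element, and CCAAT, each on either strand, so that TTCAAA and ATTGG are marked too. The printed TTTGAA and ATTGG overlap by their shared letters in MKI67. CCNB1 lies at chr5:69166900-69167199 (+ strand), PLK1 at chr16:23678639-23678938 (+ strand), MKI67 at chr10:128126374-128126673 (- strand) and CDC20 at chr1:43358731-43359030 (+ strand).
CCNB1: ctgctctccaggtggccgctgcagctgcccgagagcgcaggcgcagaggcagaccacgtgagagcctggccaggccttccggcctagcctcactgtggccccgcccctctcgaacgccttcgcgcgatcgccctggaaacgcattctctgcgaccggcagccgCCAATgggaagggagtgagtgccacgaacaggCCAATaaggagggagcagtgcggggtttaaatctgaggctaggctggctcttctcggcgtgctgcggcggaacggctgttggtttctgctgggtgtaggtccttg
PLK1: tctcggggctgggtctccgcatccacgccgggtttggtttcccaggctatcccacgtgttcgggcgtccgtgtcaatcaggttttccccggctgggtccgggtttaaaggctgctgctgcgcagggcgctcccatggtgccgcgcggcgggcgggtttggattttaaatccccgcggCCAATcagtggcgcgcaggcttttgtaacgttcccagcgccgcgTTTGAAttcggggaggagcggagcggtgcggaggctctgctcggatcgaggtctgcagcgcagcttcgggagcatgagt
MKI67: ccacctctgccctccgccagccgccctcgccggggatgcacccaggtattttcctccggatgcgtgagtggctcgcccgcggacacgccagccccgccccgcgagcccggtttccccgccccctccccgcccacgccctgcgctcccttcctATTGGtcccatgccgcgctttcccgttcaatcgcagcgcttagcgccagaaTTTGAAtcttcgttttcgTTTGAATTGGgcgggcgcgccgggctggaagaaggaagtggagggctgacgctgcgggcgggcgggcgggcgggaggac
CDC20: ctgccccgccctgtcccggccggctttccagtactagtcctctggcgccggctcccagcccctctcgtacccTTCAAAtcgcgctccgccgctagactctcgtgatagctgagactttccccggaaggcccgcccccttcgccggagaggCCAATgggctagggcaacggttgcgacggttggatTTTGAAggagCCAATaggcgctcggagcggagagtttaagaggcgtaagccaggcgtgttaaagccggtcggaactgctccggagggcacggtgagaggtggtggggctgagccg
PLK1, MKI67 and CDC20 hold TTTGAA, and CCNB1 holds a pair of CCAAT boxes and no TTTGAA in this window. Of the 65 mitosis genes with a promoter in the table, 38 (58.5%) held TTTGAA and 44 (67.7%) CCAAT, against 15.4% and 35.7% of all 27305 promoters of that length. Among the tested genes with a promoter the shares were 10.6% and 36.7%. Of the 136 genes with a promoter among those 2-fold lower in both numbers, 35.3% held TTTGAA. Outside the mitosis, replication and repair lists the share was 25.3% (20 of 79), and of the 87 genes higher in both it was 21.8%. These letters are a description of the windows and not evidence of binding.

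Genes of DNA replication stood lower by less, with nearly the same size in both numbers. Of 59 listed genes 56 were measured, and the median difference was -0.97 in number 1 and -0.84 in number 2. Both sh52 arrays lay below both shGFP arrays for 51 of them, against 22.2% of all genes. In both numbers 15 were 2-fold lower, against 1.2%. With the array labelled sh52 2 alone, a looser condition, 51 lay below, against 32.2% of all genes. Licensing and origin-firing genes, which load and start the replicative helicase, had a median of -1.09 over 22 genes, all 22 below. MCM5 of the helicase differed by -1.77 and -1.23, and MCM3 by -1.53 and -1.37. RFC3, a subunit of the clamp loader, read 9.99 and 10.18 with shGFP, 9.44 and 7.47 with sh50 and 8.61 and 8.42 with sh52. The sh52 arrays lay close together for RFC3, while those of sh50 differed by almost 2 units. Nucleotide supply was at -0.66 over 5 genes, with RRM2, of ribonucleotide reductase, at -0.65 and -0.67. CCNE1, the cyclin of S-phase entry, was on the other side at 0.33 and 0.20. CCND1, the D-type cyclin of early G1, was not in the list and differed by -2.42 and -0.96.

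The RFC3 promoter (chr13:33817899-33818198 (+ strand)) is printed because, of the replication genes holding TTTCCCGC, letters of an E2F site, RFC3 had the most negative estimate. Capitals mark the letters on the reverse strand.
RFC3: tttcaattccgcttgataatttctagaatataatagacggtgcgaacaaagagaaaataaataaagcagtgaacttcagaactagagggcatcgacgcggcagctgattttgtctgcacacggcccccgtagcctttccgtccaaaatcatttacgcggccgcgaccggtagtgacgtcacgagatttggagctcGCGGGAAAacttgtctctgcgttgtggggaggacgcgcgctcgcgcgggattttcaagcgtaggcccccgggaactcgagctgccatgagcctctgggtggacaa
Of 47 replication genes with a listed promoter, 10 (21.3%) held TTTCCCGC on either strand. The share was 1.66% of all promoters, 2.55% of those of the tested genes and 1.54% of those of the mitosis genes. Among genes with a promoter, 8.09% of those 2-fold lower in both numbers held it and 1.15% of those higher. TTTGAA was in 4.26% of the replication promoters.

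Genes of homologous recombination and repair followed with medians of -0.84 in number 1 and -0.70 in number 2 over 29 of 38 listed genes. Both sh52 arrays lay below both controls for 25 of them, against 22.2% of all genes. BRCA1 read 9.27 and 9.24 with shGFP, 8.92 and 7.40 with sh50 and 7.84 and 7.98 with sh52. POLQ, the polymerase of microhomology joining, differed by -1.66 and -1.18, and CLSPN, which carries the replication checkpoint signal, by -1.73 and -1.12. In the Fanconi pathway FANCI differed by -1.57 and -1.09. CHEK2, a checkpoint kinase, differed by -0.01 and -0.04, the latter 0.013 under quantile normalization. EZH2, the methyltransferase of polycomb complex 2, differed by -1.22 and -1.16, while the 30 polycomb and DNA methylation genes had a median of -0.12. DNMT1 and UHRF1, which copy DNA methylation at replication, differed by -1.49 and -0.76 and by -1.38 and -0.63.

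**Figure D3:**
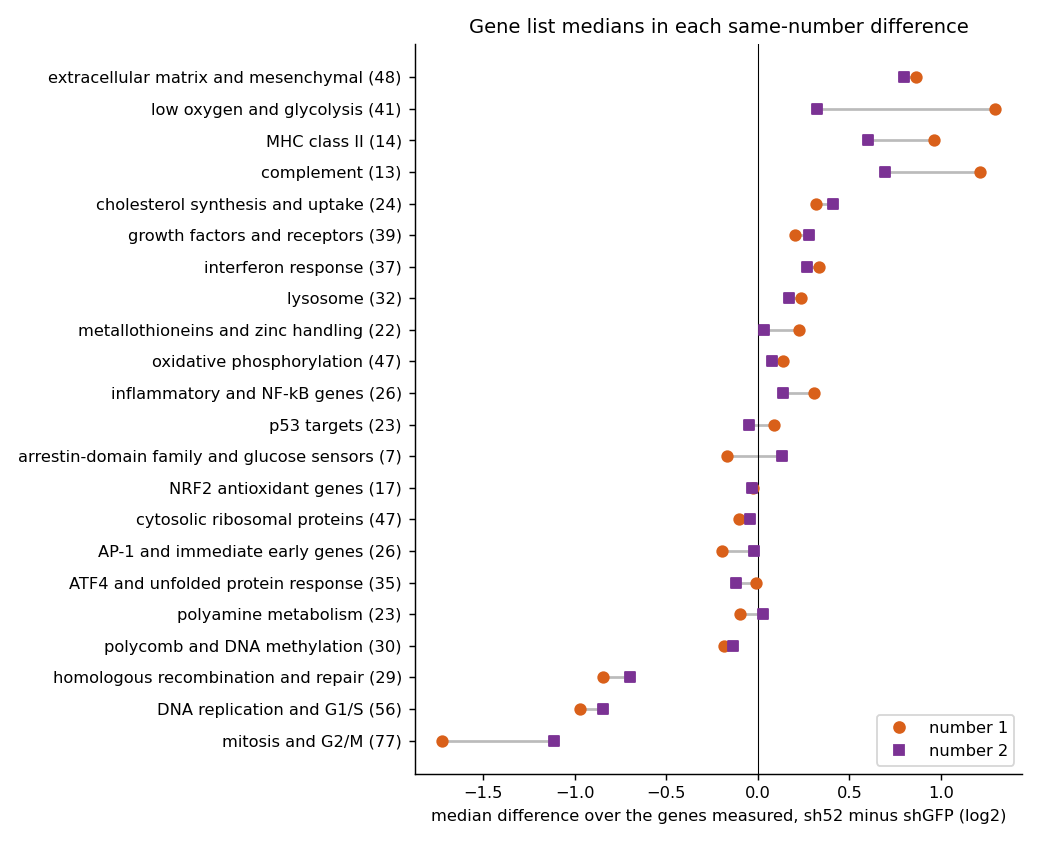
Median difference (log2, x axis) over the measured genes of each list drawn, with the number of genes in parentheses. Orange circles are number 1 and purple squares number 2. The cell and line marker lists and the MIR29 loci are not drawn. The mitosis list is at -1.72 and -1.12, the matrix list at 0.87 and 0.80, and the low-oxygen list at 1.29 and 0.32, with its markers far apart.

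Genes of the low-oxygen response stood much higher on the array labelled sh52 1 than on any other array. When oxygen is short, the factors HIF1A and EPAS1 escape destruction and switch on glucose uptake, glycolysis and secreted factors. Of 43 listed genes 41 were measured, and the median difference was 1.29 in number 1 and 0.32 in number 2. Both sh52 arrays lay above both controls for 29 of them, against 20.8% of all genes, and 5 were 2-fold higher in both numbers, against 0.876%. With the array labelled sh52 2 alone, 30 lay above and 3 below both controls, against 35.3% and 32.2% of all genes. The estimate's median of 0.82 was 0.33 without the array labelled sh52 1 and 1.36 without the array labelled sh52 2. That array also had the highest spike-in mean (9.83), and the part of either in the other was not tested.

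HILPDA, which holds lipids in droplets by inhibiting their lipase, was the extreme. It read 7.16 and 7.04 with shGFP, 7.12 and 7.07 with sh50, 12.98 on the array labelled sh52 1 and 7.42 on the array labelled sh52 2. With the array labelled sh52 2 left out it was the only transcript that limma called (5.88, adjusted p = 0.0349). With that array in, limma's adjusted p was 0.645.

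Among the secreted and matrix targets, ANGPTL4, an inhibitor of lipoprotein lipase, was high on both sh52 arrays. It read 6.35 and 6.91 with shGFP, 8.51 and 8.78 with sh50 and 11.12 and 9.29 with sh52. LOX, which cross-links collagen, differed by 2.98 and 1.16, and P4HA1, which hydroxylates collagen prolines, by 2.99 and 0.89. VEGFA, the angiogenic factor, read 10.87 and 10.69 with shGFP and 12.26 and 10.63 with sh52, so that the arrays overlap. For VEGFA the number 2 difference was -0.056, and 0.018 under quantile normalization.

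In glucose uptake and glycolysis, ALDOC, an aldolase, differed by 3.72 and 1.23, and SLC2A3, a glucose transporter, by 2.63 and 1.28. SLC2A1, the common glucose transporter, differed by 1.16 and 0.49. The abundant glycolytic genes lay near 0: PKM at -0.06 and -0.05, ENO1 at 0.20 and -0.14, ALDOA at 0.09 and 0.13. Quantile normalization turned the sign of PKM in number 2 (0.017) and of ENO1 in number 1 (-0.030). In the feedback group, NDRG1 differed by 2.92 and 0.62 and BNIP3, which marks mitochondria for removal, by 2.56 and 0.41. HIF1A itself differed by 0.48 and 0.04 and EPAS1 by 1.07 and 0.88. EGLN3, a prolyl hydroxylase that marks these factors for destruction, differed by 0.62 and -0.31.

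**Figure D4:**
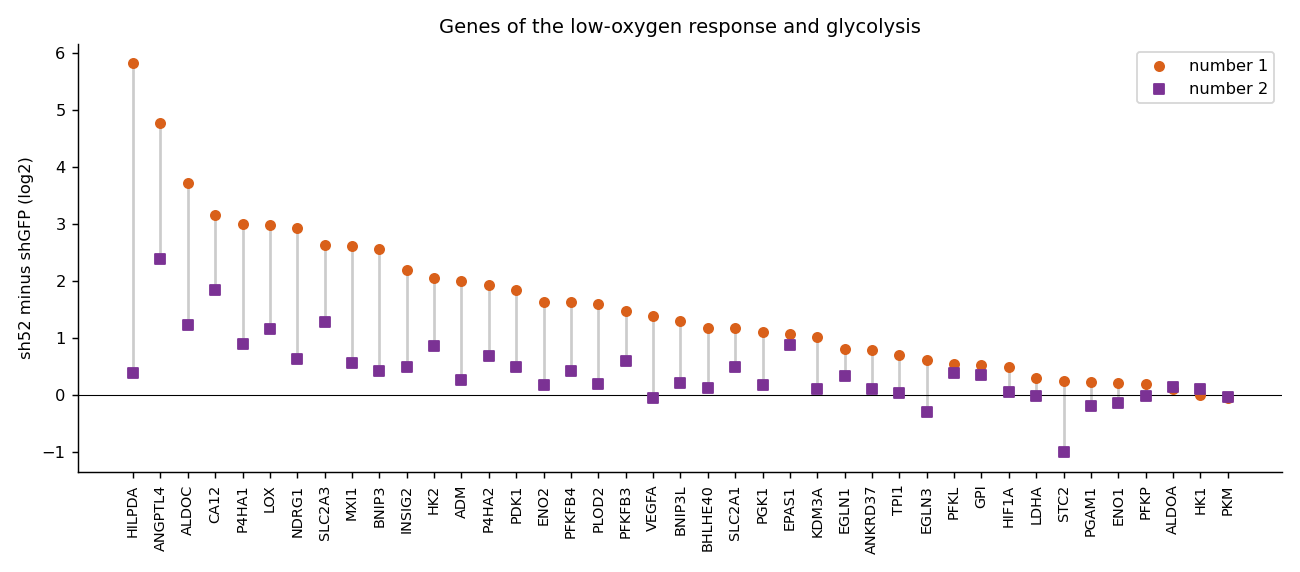
Difference sh52 minus shGFP (log2, y axis) for each of the 41 measured low-oxygen and glycolysis genes, ordered by number 1 (orange circles), with number 2 as purple squares. HILPDA runs from 5.82 to 0.38, ANGPTL4 from 4.78 to 2.38, and the glycolytic genes on the right lie near 0 in both.

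TXNIP and ARRDC4, glucose-responsive arrestins, stood high on the same array. They belong to a list of 7 measured genes that was added after the values were seen and had a median estimate of -0.02. TXNIP, which binds thioredoxin and restrains glucose uptake, read 11.10 and 10.71 with shGFP, 11.01 and 12.24 with sh50 and 15.63 and 12.82 with sh52. Its relative ARRDC4 read 8.62 and 8.59, then 10.08 and 10.43, then 12.58 and 10.15. ARRDC3 differed by 2.23 and 0.13, while ARRDC1 and ARRDC2 lay between -0.23 and -0.06 in both. Both TXNIP and ARRDC4 thus had sh52 arrays above both controls, and the sh50 arrays lay above both controls in ARRDC4 and on both sides of shGFP 1 in TXNIP. MLXIP and MLX, which sense glucose metabolites and drive these genes, differed by -0.55 and 0.11 and by -0.39 and 0.35. DDIT4, an inhibitor of growth signalling that responds to low oxygen, differed by 3.13 and 1.42. The TXNIP estimate of 3.32 was 1.91 without the array labelled sh52 1.

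The TXNIP promoter (chr1:145996530-145996829 (- strand)) is printed because it holds a carbohydrate response element. Capitals mark a pair of E-box-like repeats, CACGNG, that stand 5 bases apart on the strand shown, together with the bases between them (N is any base).
TXNIP: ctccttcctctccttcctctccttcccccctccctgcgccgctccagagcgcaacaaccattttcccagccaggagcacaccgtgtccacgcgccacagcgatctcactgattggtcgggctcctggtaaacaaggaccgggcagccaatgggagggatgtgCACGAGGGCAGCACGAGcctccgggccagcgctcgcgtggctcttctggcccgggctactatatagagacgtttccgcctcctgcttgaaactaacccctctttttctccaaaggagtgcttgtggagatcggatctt
That pattern was in 20 of 27305 promoters (0.0732%) and in 16 of the 10387 tested genes with a promoter, and not in the window of ARRDC4.

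Genes of the extracellular matrix stood higher in both numbers by about the same amount. Of 55 listed genes 48 were measured, with medians of 0.87 and 0.80. Both sh52 arrays lay above both controls for 25 of them (20.8% of all genes) and 11 were 2-fold higher in both numbers (0.876%). With the array labelled sh52 2 alone, 30 lay above both controls, against 35.3% of all genes. In number 2 alone 15 were 2-fold higher, against 191 of all 14376 genes. The estimate's median of 0.86 lay between 0.54 and 1.15 when single arrays were left out. It was 0.54 without shGFP 2 and 0.56 without the array labelled sh52 1.

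Collagens had a median of 1.14 over 11 genes. COL6A1 differed by 1.48 and 1.82, COL1A2 by 1.73 and 1.23 and COL5A1 by 2.33 and 1.22. Among glycoproteins, LAMA4, a laminin chain of vessel basement membranes, read 9.50 and 8.80 with shGFP, 11.50 and 10.86 with sh50 and 11.86 and 11.24 with sh52. CHI3L1, a secreted lectin used as a marker of mesenchymal glioblastoma, read 7.46 and 7.03, then 8.91 and 10.76, then 10.37 and 11.14. For both, every array of either hairpin lay above both controls. FN1, fibronectin, differed by 1.16 and 1.19, and SPARC, a collagen-binding glycoprotein, by 1.39 and 1.24.

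Among proteases MMP3, stromelysin, was far apart between numbers. It read 9.90 and 12.34 with shGFP, 13.75 and 11.49 with sh50 and 16.10 and 13.26 with sh52, so that its number 1 difference was 6.20 and its number 2 difference 0.92. The shGFP arrays were themselves far apart. RECK, a membrane inhibitor of such proteases, was even, at 6.64 and 6.79 with shGFP and 7.82 and 7.83 with sh52. Of the receptors ITGA5, of the fibronectin receptor, differed by 1.19 and 1.31. CCN1 and CCN2, matricellular targets of YAP, had opposite signs, at -2.32 and 0.54 and at -1.80 and 1.26.

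MIR29A and MIR29B1 stood lower with sh52. Their microRNAs are known to bind messenger RNAs of collagens and other matrix proteins. They were taken up after their values were seen. The MIR29A transcript read 9.99 and 10.63 with shGFP, 9.88 and 8.33 with sh50 and 7.58 and 9.45 with sh52. MIR29B1, from the same cluster, read 6.23 and 6.57, then 5.84 and 5.57, then 5.22 and 5.01 (estimate -1.28 ± 0.20, SE; limma adjusted p = 0.501). The array reads the locus and not the mature microRNA, and its relation to the matrix genes was not tested. The mature 3p sequences from RefSeq (GRCh38.p14), printed to show the seed (bases 2 to 8, in capitals) that the members share, lie at chr7:130876748-130876769 (- strand) and chr7:130877467-130877489 (- strand).
hsa-miR-29a-3p: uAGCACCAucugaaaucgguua
hsa-miR-29b-3p: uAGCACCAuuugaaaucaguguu

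Several secreted and surface proteins outside those lists ranked among the largest concordant differences. EFEMP1, a fibulin of the matrix, read 8.45 and 6.06 with shGFP, 8.60 and 7.80 with sh50 and 12.24 and 9.14 with sh52. Its estimate of 3.43 was 1.88 without the array labelled sh52 1 and 4.63 without shGFP 1. TGM2, a transglutaminase that cross-links matrix proteins, read 9.96 and 8.17, then 11.17 and 10.19, then 11.82 and 12.22. CCN4, a matricellular target of Wnt signalling, differed by 3.07 and 2.56, and SRPX2, a secreted ligand of the urokinase receptor, by 3.08 and 2.13. IL7R, the interleukin-7 receptor, read 7.81 and 7.27 with shGFP, 8.53 and 6.93 with sh50 and 10.58 and 9.40 with sh52. CCR1, a chemokine receptor, differed by 1.91 and 2.69 from low levels of 4.31 and 4.07. SBSN, a secreted protein of skin, differed by 1.93 and 2.19. KIRREL1, an adhesion protein, was tight, at 9.80 and 9.74 with shGFP, 9.85 and 9.93 with sh50 and 11.02 and 10.81 with sh52.

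Other concordant higher genes had sh50 levels near or above those of sh52. CPA4, a carboxypeptidase, read 7.33 and 8.98 with shGFP, 10.45 and 11.58 with sh50 and 9.56 and 11.12 with sh52. RANBP3L, a nuclear export factor, read 5.60 and 7.28, then 7.55 and 12.37, then 8.04 and 9.41. For RANBP3L the sh50 arrays were far apart. The small nucleolar RNA SNORA2A read 8.19 and 6.79, then 10.05 and 10.57, then 10.34 and 9.18. Of the 5 genes higher with the smallest p, PCDHGC5, a clustered protocadherin, read 7.96 and 8.10 with shGFP, 9.36 and 9.66 with sh50 and 9.29 and 9.43 with sh52. The small Cajal body RNA SCARNA3 read 6.53 and 6.98, then 8.21 and 8.29, then 8.38 and 8.15. In both every array of either hairpin lay above both controls.

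Complement genes were partly higher. C3, the central component, read 8.49 and 8.89 with shGFP, 12.35 and 13.39 with sh50 and 12.50 and 11.63 with sh52. The arrays of both hairpins were thus far above the controls. Of 27 listed genes 13 were measured, with medians of 1.21 and 0.70. Both sh52 arrays lay above both controls for 9, against 20.8% of all genes. C1QA, C6, C7, C8A and C9 were among those below the filter. The median estimate of 0.72 ran from 0.13 to 1.22 under alternatives that kept all arrays. C1R and C1S, proteases that start the classical pathway, differed by 1.47 and 0.97 and by 1.74 and 0.75. C5 was on the other side, with an estimate of -0.98.

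Of 14 measured genes of the class II system of the major histocompatibility complex, which presents peptides to helper T cells, 10 had both sh52 arrays above every shGFP and sh50 array, against 7.26% of all genes. The other 4 were CIITA, RFX5, RFXAP and RFXANK, which control transcription of the class. This list was also added after the values were seen. HLA-DRA read 12.24 and 11.78 with shGFP, 11.34 and 12.22 with sh50 and 14.16 and 13.27 with sh52. CD74, the invariant chain that guides class II proteins, read 9.45 and 8.62, then 8.70 and 9.49, then 10.85 and 9.95. HLA-DMA, which loads peptides, differed by 1.71 and 1.29. In all 3 both sh52 arrays lay above the other 4. Over the 14 genes the medians were 0.96 and 0.60. CIITA, the transcription factor that controls the class, differed by -0.35 and 0.37, and RFX5 by -0.20 and -0.13. Some HLA genes are near-identical copies, and for those it is uncertain which member a value belongs to. Markers of immune cells were low or below the filter in 14 of 20 cases, PTPRC, CD3E and CD14 among them, and the 6 measured had medians of 0.20 and 0.21. Their part in the class II values was not tested.

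**Figure D5:**
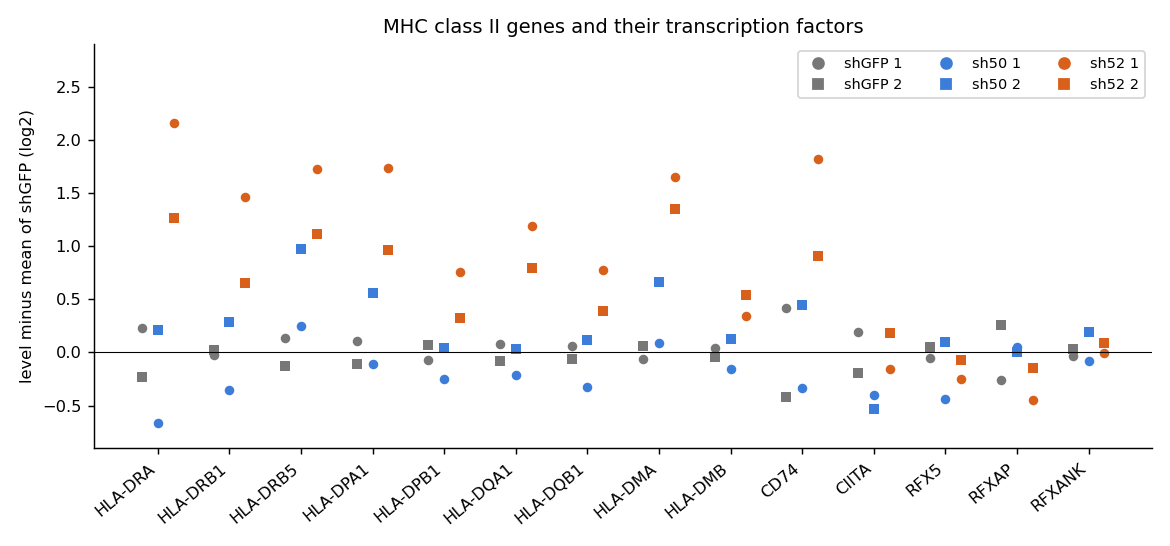
Level minus the shGFP mean (log2, y axis) of 14 class II genes and their transcription factors, with grey for shGFP, blue for sh50, orange for sh52, circles for number 1 and squares for number 2. For HLA-DRA, HLA-DMA and CD74 both orange points lie above all others, and those of CIITA lie among the rest.

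Interferon response genes, which include class I genes, had medians of 0.33 and 0.27 over 37 of 47 listed genes. Of these, 22 had both sh52 arrays above both controls and 1 below, against 20.8% and 22.2% of all genes. IFITM2 and IFITM3, membrane proteins that block virus entry, differed by 1.78 and 1.01 and by 1.64 and 0.96. IFI6 differed by 2.88 and 0.63. ISG15 and MX1, classical responders, lay within 0.14 of 0 in both. HLA-C differed by 1.19 and 0.82. With the array labelled sh52 2 alone, 30 of the 37 lay above both controls, against 35.3% of all genes.

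CXCL8, IL1B and PTGS2 of the inflammatory list differed far more between the numbers than between the hairpins. CXCL8, the neutrophil chemokine, read 15.99 and 9.96 with shGFP, 15.60 and 10.25 with sh50 and 15.72 and 10.15 with sh52. The arrays numbered 1 were thus far above those numbered 2 in each group, and the same-number differences were -0.27 and 0.19. IL1B read 14.77 and 9.84, then 15.21 and 8.06, then 13.37 and 10.51. PTGS2, the enzyme of inducible prostaglandin synthesis, read 13.42 and 7.35, then 14.43 and 8.39, then 15.47 and 8.14. IL6, with 10.15 and 5.75 for shGFP and 11.57 and 7.39 for sh52, differed by 1.42 and 1.65. LIF, an IL6-family cytokine, differed by -4.26 and -1.06. CCL2, which attracts monocytes, differed by 2.21 and 1.36. The 26 measured genes of 33 had medians of 0.31 and 0.14. Of them 3 had both sh52 arrays above both controls and 1 below, against 20.8% and 22.2% of all genes. The 11 NF-kB subunits and inhibitors had median levels of 8.83 and 8.15 with shGFP and 8.59 and 8.06 with sh52, a smaller gap between numbers. The median estimate over the list was 0.14, and it was -0.41 without the array labelled sh52 1, 1.15 without the array labelled sh52 2, 1.20 without shGFP 1 and -0.21 without shGFP 2.

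Receptors and ligands of growth factors were mixed, with medians of 0.20 and 0.28 over 39 genes. PDGFRB, a platelet-derived growth factor receptor, read 6.63 and 6.21 with shGFP, 6.64 and 7.45 with sh50 and 9.90 and 7.81 with sh52. TGFBR2, the type 2 receptor of TGF-beta, read 11.73 and 12.66, then 13.44 and 14.21, then 12.90 and 14.80. EREG, a ligand of the EGF receptor, differed by -1.46 and -1.75, while HBEGF, another, had opposite signs at -3.28 and 0.56. IGFBP3, which binds insulin-like growth factors, differed by 3.49 and 0.28. In the AP-1 and immediate early list (median -0.07 over 26 genes) FOSL1, an AP-1 subunit, read 11.08 and 11.23 with shGFP, 10.33 and 9.19 with sh50 and 7.60 and 10.24 with sh52. EGR1, an early growth response factor, differed by -1.23 and -1.11, and KLF2, a Krüppel-like transcription factor, by -1.13 and -1.26.

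Polyamine genes showed no common direction. The 23 measured of 28 had medians of -0.10 and 0.03. Of them 4 had both sh52 arrays above both controls and 4 below, against 20.8% and 22.2% of all genes. ODC1, the first enzyme of synthesis, differed by -3.25 and -0.77, with both sh52 arrays, at 10.75 and 12.23, below both controls. AMD1, which supplies the aminopropyl donor, read 11.94 and 12.87, then 12.26 and 12.23, then 10.34 and 12.10, so that its groups overlap. SMS and SRM, the synthases of spermine and spermidine, lay between -0.41 and 0.10. SAT2, the relative of SAT1, differed by 0.76 and 0.47.

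Of the antioxidant genes driven by NRF2, 17 of 21 were measured, with medians of -0.03 in both numbers. The median estimate was -0.62 without shGFP 1, 0.46 without shGFP 2, 0.45 without the array labelled sh52 1 and -0.32 without the array labelled sh52 2. Both sh52 arrays lay below both controls for 2 of the 17, GSR and GCLM, against 22.2% of all genes, and above for 0. TXNRD1, thioredoxin reductase, differed by -1.15 and -1.48, and SLC7A11, the cystine transporter, by -1.48 and -2.33. In both the sh52 and shGFP arrays overlapped, and the SLC7A11 estimate ran from -4.68 to 0.87 with single arrays left out. GCLM, which regulates glutathione synthesis, read 9.54 and 10.12 with shGFP, 9.75 and 9.53 with sh50 and 8.56 and 8.89 with sh52. HMOX1, heme oxygenase, was not lower, at 1.25 and 0.04. In the ATF4 and unfolded protein list the amino acid genes leaned lower in number 2, with a median of -0.74 against -0.09 in number 1. SLC7A5, an amino acid transporter, differed by -1.12 and -1.83 and PHGDH, an enzyme of serine synthesis, by -0.43 and -1.01. HSPA5, the chaperone of the endoplasmic reticulum, differed by 0.84 and 0.62.

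Cholesterol genes had medians of 0.32 and 0.41 over 24 of 29 listed. Of these 12 had both sh52 arrays above both controls and 0 below, against 20.8% and 22.2% of all genes. SCD, a fatty acid desaturase, differed by 2.02 and 1.44, HMGCS1 of the mevalonate pathway by 2.35 and 0.95, and ABCA1, which exports cholesterol, by 1.62 and 1.23. Lysosomal genes had medians of 0.23 and 0.17, with 13 of 32 above, against 20.8% of all genes. Oxidative phosphorylation stood at 0.14 and 0.08 (47 genes), ribosomal proteins at -0.11 and -0.04 (47), metallothioneins and zinc transporters at 0.22 and 0.03 (22), and p53 targets at 0.09 and -0.05 (23). The p53 median estimate ran from -0.31 without shGFP 1 to 0.34 without shGFP 2. Of the p53 targets CDKN1A, the cyclin kinase inhibitor, differed by 0.45 and 0.24 and MDM2, the ligase that degrades p53, by -1.27 and -0.88. Neuronal markers were measured for 6 of 18, with medians of 0.84 and 0.17. SNAP25, of vesicle fusion, differed by 2.43 and 1.25 and MAP2, of the cytoskeleton, by 1.20 and 0.97. RBFOX3, SYN1, SYP, STMN2 and DCX were among the neuronal markers below the filter. The neuronal median estimate of 0.59 ran from 0.12 to 1.08 under alternatives that kept all arrays. Epithelial markers (7 of 14 measured) stood at 0.31 and 0.07 and endothelial ones (4 of 10) at -0.16 and 0.11.

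Some transcripts differed in opposite directions between the numbers. Both differences reached 2-fold with opposite signs for 17 transcripts higher in number 1 (0.0503%) and 13 lower in number 1 (0.0385%). SAT1 was among 5 such genes of the first kind. PTPN22, a phosphatase of lymphocytes, read 11.17 and 7.44 with shGFP, 11.80 and 7.91 with sh50 and 9.09 and 8.91 with sh52. The number gap seen in the other groups was thus all but missing with sh52. MYOZ2, of muscle sarcomeres, read 8.91 and 4.95, then 9.38 and 5.67, then 7.60 and 6.38, a like pattern. RGS4, which shortens G protein signals, differed by -1.61 and 1.30. Of the other genes lower in number 1 and higher in number 2, MARCHF4, a ubiquitin ligase, differed by -1.17 and 0.85 and the small nucleolar RNA SNORD71 by -1.56 and 0.88. IGHD3-16, an immunoglobulin segment, differed by -1.09 and 1.67. In the reverse direction, beside SAT1, were noncoding genes and a pseudogene: N4BP2L2-IT2 at 1.14 and -1.20, MIR3136 at 1.06 and -1.13, MIR1267 at 0.90 and -0.84, TAS2R64P at 1.51 and -1.12, and MIR548X, MIR548H2 and MIR548AA2 of the family described next.

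Members of some families of small or repeated genes stood together. The 36 transcripts named as MIR548 had medians of 0.64 in number 1 and -0.58 in number 2. Of them 28 were higher in number 1 and lower in number 2, as were 2496 of all 14376 genes. The family's median level read 11.56 and 12.25 with shGFP, 11.52 and 11.81 with sh50 and 12.48 and 11.63 with sh52. For 23 of the 36 the chromosome in the array's identifier did not match that of the named gene, so those names are unreliable. The 13 bitter taste receptor genes (TAS2R) showed the same with 0.52 and -0.74, 11 of them opposed. Their median level read 5.21 and 5.99 with shGFP, 5.385 and 5.43 with sh50 and 5.88 and 5.20 with sh52. For these receptors shGFP 2 thus had the highest median of all arrays. The SNORD116 cluster, small nucleolar RNAs of the imprinted Prader-Willi region, was higher in both numbers. Its 18 near-identical copies had medians of 1.40 and 0.98. Of the copies 17 had both sh52 arrays above both controls, against 20.8% of all genes. The cluster's median level was 5.10 and 5.11 on the shGFP arrays, 6.51 and 6.01 on the sh50 arrays and 6.21 and 5.78 on the sh52 arrays. The signs of these medians held under quantile normalization and with centred arrays. These 3 families were picked after their values were seen.

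Between sh52 and sh50, limma called 0 of 33764 transcripts (0% called, smallest adjusted p 0.493, 2138 or 6.33% with an unadjusted p under 0.05). NCEH1, TMEM30A and CA12, given above, were among the largest differences. TMTC3, which attaches mannose to cadherins, read 8.98 and 8.27 with sh50 and 11.49 and 10.76 with sh52, with shGFP between at 10.24 and 9.92. SLC4A4, a bicarbonate transporter, read 9.28 and 8.21 with sh50 and 6.19 and 6.68 with sh52, with shGFP at 8.19 and 7.39. TP53INP1, a p53 target, read 8.44 and 10.57 with sh50 and 6.68 and 7.58 with sh52, with shGFP at 5.98 and 8.27.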

How the data were processed

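Total RNA of U87MG cells was measured on 6 arrays. Per the labels, the authors summarised core exons by RMA (Expression Console), and the values they deposited are read as log2, the log base being not given in the sources used here. The submitters' processing notes also name Transcriptome Analysis Console. Of 70523 features, 2995 that are not transcript clusters were left out. Platform annotation gave 23781 transcript clusters 1 symbol and 1543 several, and left 42204 unnamed. Symbols were updated through RefSeq (GRCh38.p14). limma 3.58.1 (R 4.3.3) fitted all 6 arrays without a block (3 residual degrees of freedom, Benjamini-Hochberg over 33764 transcripts, two-sided) and was tested on simulated data. Tables were handled with pandas 2.3.3.

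Named genes are SAT1, the 15 each way with the largest smaller same-number difference among genes whose arrays do not overlap, the 5 each way by p, the 8 each way with opposed differences, the 4 each way against sh50, and list members by role. Of these, 2 genes are not reported here. The lists, members and comparisons were chosen with earlier results of these data known. The labels share replicate numbers but state no pairing, and each comparison has 2 numbers, so the number was kept out of the fit and tried as a block. Deviations from group means correlated at 0.345 over transcripts and 0.462 over genes (sh52 with shGFP), 0.387 and 0.475 (sh50 with shGFP) and 0.052 and 0.109 (sh52 with sh50).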

Additional observations from a re-analysis of the deposited data

How the results depend on the processing

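The count of called transcripts was 0 under every alternative that keeps all arrays, the replicate block included, and between 0 and 1 when single arrays were left out. The replicate number as a block, which rests on a shared number and not on a known pairing, gave 3661 transcripts with an unadjusted p under 0.05 against 2964, and 0 called between sh52 and sh50. No filter gave 5025 and a filter at the 75th percentile (5.91) 1776; leaving out single arrays gave 1660 (without the array labelled sh52 1) to 5315 (without the array labelled sh52 2). Transcripts past the fold in both numbers were 908 higher and 1001 lower at 1.5-fold, and 43 and 30 at 3-fold. With either number alone they were 408 to 1703 higher and 524 to 1307 lower. Transcripts whose arrays do not overlap numbered 6812 higher and 6587 lower, 6533 and 6996 under quantile normalization and 5600 and 7720 with centred arrays. They were 15431 and 10081 without the filter, 3289 and 3937 at the 75th percentile, and 10489 to 13307 and 9862 to 12966 with single arrays left out, where fewer arrays have to be apart. List medians moved with single arrays left out from -0.78 to -1.03 for replication, from -0.71 to -0.92 for repair and from 0.54 to 1.15 for the matrix, which stood at 0.70 without the filter. SAT1 ran from -1.36 to 1.63.

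Of 140 single genes recomputed, 13 turned sign under some alternative and 3 of them with all arrays kept: CLDN5 at -0.014 (quantile) and -0.024 (centred arrays), KDR at -0.016 (centred) and TP53INP1 at -0.030 (centred). With single arrays left out the estimates ran from -1.64 to 0.26 for AEN, -0.13 to 0.17 for CLDN5, -0.094 to 1.89 for ENO2, -0.16 to 0.034 for ESAM, -0.67 to 3.74 for IL6, -0.25 to 0.30 for KDR, -5.39 to 0.077 for LIF, -0.12 to 0.87 for PDGFRA, -2.25 to 5.08 for PTGS2, -4.68 to 0.87 for SLC7A11, -0.36 to 0.12 for TEK and -1.13 to 1.16 for TP53INP1. Of 1554 same-number differences of 777 genes, 103 turned sign under quantile normalization or centring, none of them over 0.2025 in size. The list counts without the array labelled sh52 1 and the family medians under other scalings were chosen after seeing the data. Of 28 list medians, 10 turned sign under some alternative, with single arrays left out ranging from -0.41 to 1.20 for inflammatory genes, -0.62 to 0.46 for NRF2 genes, -0.31 to 0.34 for p53 targets, -0.12 to 0.026 for ATF4 genes, -0.20 to 0.0078 for polyamine genes, -0.23 to 0.046 for ribosomal proteins, -0.26 to 0.090 for AP-1 genes, -0.029 to 0.48 for line markers, -0.088 to 0.037 for endothelial markers and -0.13 to 0.13 for the arrestin list, which was 1.18 with the filter at the 75th percentile. A group left with 1 array is assumed to vary like the others. The causes were not tested. The number of arrays limits every value, and no direction passed the test.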
